A study of Homo sapiens with 6 samples.

Results

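The replication-dependent histone genes supply the histone proteins that package newly made DNA. Their members were taken as all rows of the deposited count table whose symbol begins with HIST1H, HIST2H, HIST3H or HIST4H and does not carry a pseudogene ending. Of 57773 genes, 53 had such a symbol, 14 of these had a pseudogene ending, and 39 genes remained. Of these 39 members, 34 are annotated as protein coding in GENCODE 29, 4 as pseudogenes (HIST2H2BA, HIST2H2BB, HIST2H2BD and HIST3H2BA), and the identifier of HIST2H2BC is not in that release. GENCODE 29 lists 70 coding genes with this naming pattern, of which 36 are not members. The identifier of 1 of these, HIST2H2AA3, is that of a row without a symbol, described among the other observations. The GENCODE 29 identifiers of the other 35 are not in the deposited count table, and these genes were not analysed here. As 24323 rows carry no symbol, further histone genes may be among them under other identifiers. Every sum, share of counts and class total below covers the 39 members only. The set held 6 genes of the linker histone H1, and 8, 15, 6 and 4 of the core histones H2A, H2B, H3 and H4.

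RNA was sequenced from 6 subcutaneous tumours that PATU cells, a human pancreatic ductal adenocarcinoma (PDAC) line, had formed in nude mice. The cells of all 6 tumours carried ishME3, a hairpin that doxycycline switches on and that targets ME3, a malic enzyme of mitochondria. In 4 tumours doxycycline was withheld (uninduced, off dox in the plots), and in 2 it was given (induced, on dox in the plots). The dose, the length of treatment, the age of the mice and whether the line is a single clone were not stated in the labels, which name the RNA as total RNA. A control hairpin was not among the samples used here, so doxycycline, hairpin induction and lower ME3 cannot be told apart. Nude mice lack mature T cells but keep stromal, vascular and myeloid cells, and reads from mouse histone transcripts may be part of the counts.

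ME3 was at 44.2, 44.1, 38.6 and 37.9 CPM (counts scaled by library size) in uninduced tumours 1 to 4, and at 33.3 and 28.5 CPM in induced tumours 1 and 2. Each induced value was under every uninduced value, but the gene did not pass over all genes (edgeR adjusted p = 0.148). For ME3 alone, permuting the 15 possible splits (exact, two-sided) gave p = 0.0667, the smallest that 4 against 2 tumours allow. Library totals ranged from 23855338 to 26885699 counts. The summed level of 6 tumour epithelium markers was 1366 to 1601 CPM without doxycycline, and 1106 and 1277 CPM in induced tumours 1 and 2. Most of that sum was KRT8, at 867 to 1050 CPM without doxycycline and 690 and 777 CPM with it. EPCAM went the other way, at 24.7 to 30.1 CPM without doxycycline and 33.35 and 39.3 CPM with it. Neither passed (edgeR adjusted p = 0.198 and 0.168), and the groups of KRT18, CDH1 and KRT7 overlapped. EPCAM and KRT8 were detected in each tumour, whereas KRT19 was at 0 in 5 of the 6 and had 1 count in the other.

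Cells make most of these histones in S phase, when DNA is copied, and shut their supply down when replication stops. The genes lie in clusters, and most of their mRNAs end in a conserved stem-loop in place of a poly(A) tail. The stem-loop is bound by SLBP, which guides 3′ processing, translation and decay of the message. Factors such as NPAT and CASP8AP2 (FLASH) gather at the clusters in the nucleus, where histone mRNAs are transcribed and cut. Some histone genes also give longer, polyadenylated transcripts in cells that have left the cycle. The replication-independent variants, such as H2AFZ and H3F3A, are made outside S phase from ordinary polyadenylated mRNAs.

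The stem-loop is shown because it is the feature that sets these mRNAs apart from the rest of the transcriptome. GENCODE 29 transcripts (GRCh38) of 19 members held a site of 16 bases with a 6-base stem and a 4-base loop. Many other members are annotated only to the stop codon, so a missing match says only that these letters are not in the annotated transcript. In the sites below, the capitals mark the stem and loop, and 5 bases on each side are in lower case.
HIST1H2AI: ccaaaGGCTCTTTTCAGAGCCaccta
HIST1H2BL: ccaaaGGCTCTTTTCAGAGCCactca
HIST1H2AG: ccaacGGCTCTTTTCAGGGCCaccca
HIST1H2BC: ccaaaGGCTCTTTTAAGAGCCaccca
HIST1H4H: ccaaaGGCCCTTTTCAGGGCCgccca
HIST4H4: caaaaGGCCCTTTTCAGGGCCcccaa
The form of HIST1H2AI and HIST1H2BL was carried by 11 members. The loop of HIST1H2BC was shared by HIST1H2BD and HIST3H3, 3 members in all. The H4 genes HIST1H4H, HIST1H4J and HIST4H4 shared a stem of their own, and the form of HIST1H2AG, with 5 Watson-Crick pairs and 1 wobble pair, was also found in HIST2H2BD.

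Histone mRNA was lower in induced tumour 1 than in every other tumour, whereas induced tumour 2 lay inside the uninduced range. The 39 members together were at 3859, 3328, 3123 and 3683 CPM in uninduced tumours 1 to 4, and at 2159 and 3226 CPM in induced tumours 1 and 2. They took 0.227% of all counts in induced tumour 1 and 0.309% to 0.373% in the other 5 tumours. The summed level was 3498 ± 334 CPM without doxycycline (SD, n = 4) and 2692 ± 754 CPM with doxycycline (SD, n = 2), a log2 ratio of -0.38. Without induced tumour 1 this log2 ratio was -0.12, and without induced tumour 2 it was -0.70. In bulk RNA, fewer cells in S phase and less histone mRNA per cell cannot be told apart.

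**Figure D1:**
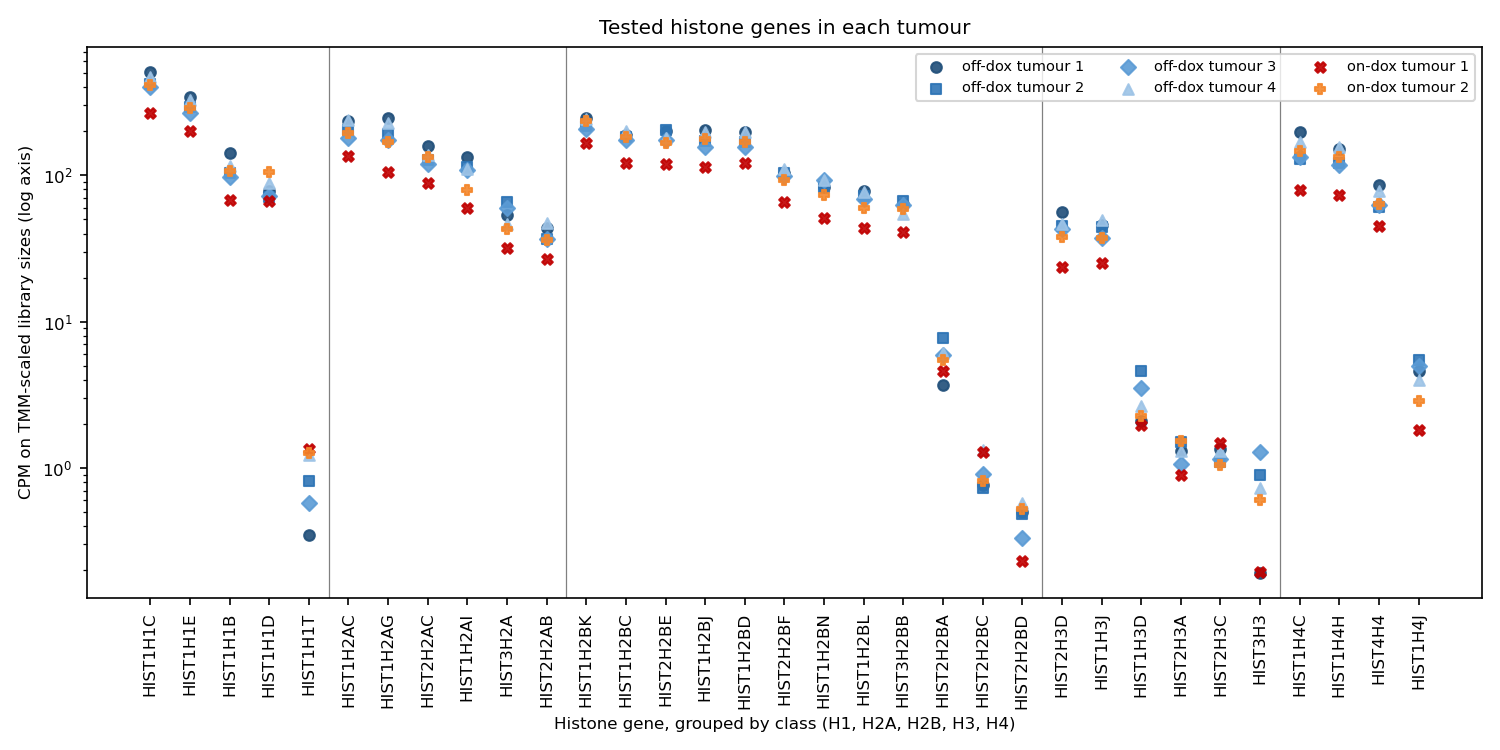
CPM on scaled library sizes (log axis) of the 33 tested histone genes, grouped by class, with a point for each of the 4 uninduced tumours (blue) and the 2 induced tumours (red and orange). Induced tumour 1 is the lowest point of 28 genes, and induced tumour 2 lies inside the uninduced range in 18.

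A low-count filter kept 33 members for the test. The 6 others, HIST1H1A, HIST1H2AA, HIST1H2AD, HIST1H2BA, HIST2H2BB and HIST3H2BA, had 1 to 35 counts over the 6 tumours. Only HIST1H2AI passed edgeR's quasi-likelihood test at an adjusted p under 0.05. That is 1 lower and 0 higher of 33, where 1.06% of the 21308 genes tested were called, 0.591% lower and 0.465% higher. At an unadjusted p under 0.05, 14 members were lower and 0 higher, where 7.42% and 6.84% of all genes were. DESeq2 called 7 members, each lower with doxycycline, where it called 1.94% of all genes lower. Without a low-count filter edgeR called 7 members lower (1.17% of all genes), and without induced tumour 2 it called 15 lower (1.44%). Leaving out any other tumour gave 0 called members by edgeR, with 5 to 19 lower at an unadjusted p under 0.05, where 5.94% to 7.12% of all genes were. At that p, HIST1H1T was higher without uninduced tumour 4 and HIST1H1D without induced tumour 1.

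The log2 fold change (induced minus uninduced) was below 0 for 29 of the 33 tested members, against 50.4% of all genes. Its median was -0.39 over the members and -0.00 over all genes tested. Both induced tumours lay below all 4 uninduced tumours for 11 members, where 11.5% of all genes did, and above them for 1 member, where the share of all genes was also 11.5%. Induced tumour 1 was the lowest of the 6 tumours for 28 members (24.6% of all genes). Induced tumour 2 lay within the uninduced range for 18 members (49.3% of all genes). Among the 24 members with a mean of at least 10 CPM, induced tumour 1 was lowest in all 24, where 34.9% of genes at that level showed the same. Of these 24, 23 had a log2 fold change below 0 (49.0% of genes at that level) and 10 had induced values below all uninduced values (12.7%).

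**Figure D2:**
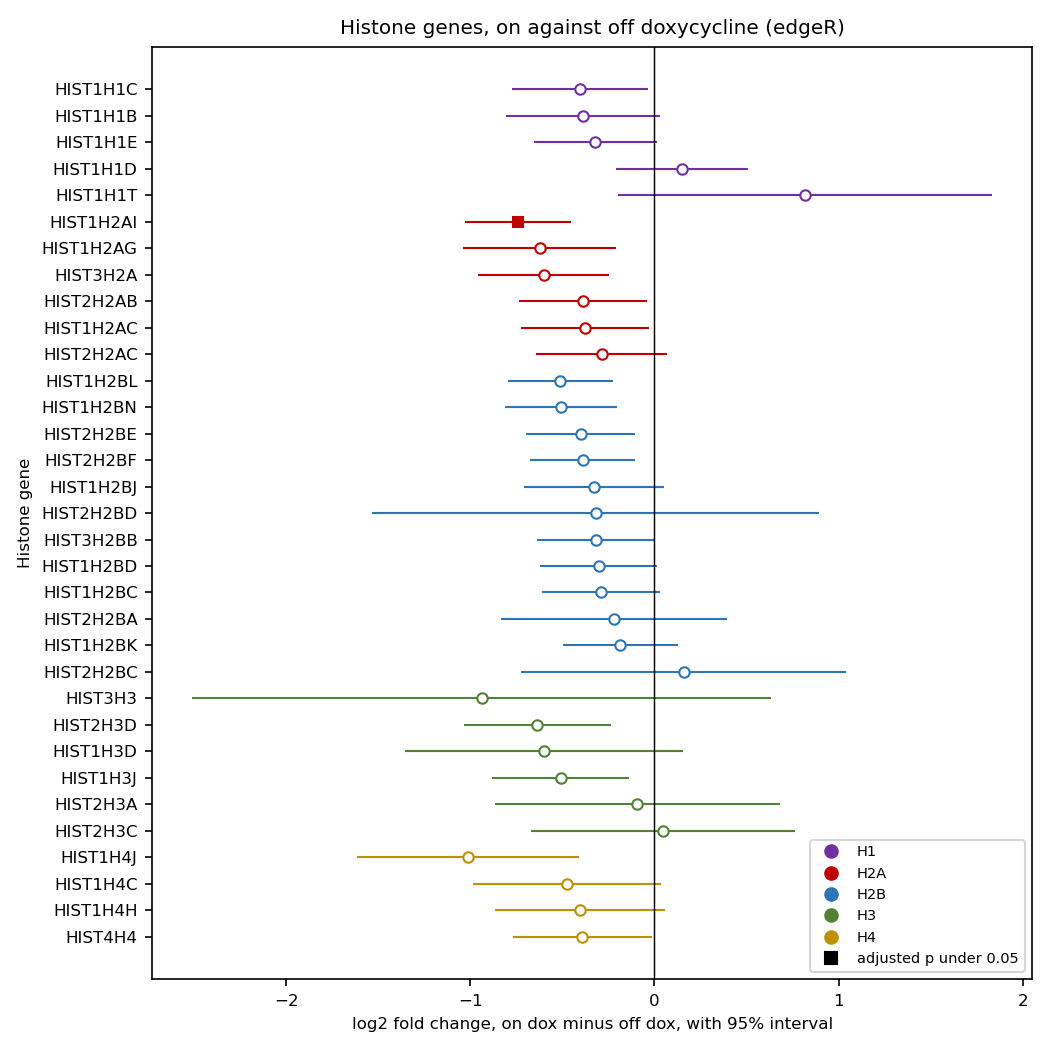
Log2 fold change of each tested histone gene, induced minus uninduced, with its 95% interval from edgeR, coloured by class. The filled square marks HIST1H2AI at -0.74, the member with an adjusted p under 0.05, and the intervals of HIST1H1D, HIST1H2BK and most other members reach across 0.

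The linker histones bind the DNA between nucleosomes and compact chromatin. The most abundant of them, HIST1H1C, was at 508, 423.5, 402 and 473 CPM without doxycycline and at 268 and 416 CPM with it. Induced tumour 1 was low and induced tumour 2 sat among the uninduced tumours, and the log2 fold change of -0.40 (SE 0.17) did not pass (edgeR adjusted p = 0.308). HIST1H1E was at 343, 294, 268 and 325 CPM without doxycycline and at 202 and 290.4 CPM with doxycycline. HIST1H1B was at 143, 103, 98.1 and 116 CPM without doxycycline and at 68.0 and 108 CPM with doxycycline. Both were low in induced tumour 1 alone, with log2 fold changes of -0.32 and -0.39 (edgeR adjusted p = 0.373 and 0.388).

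HIST1H1D, a further somatic H1 gene, departed from HIST1H1C, HIST1H1E and HIST1H1B. It was at 78.6, 71.0, 71.8 and 89.2 CPM without doxycycline and at 67.2 and 105 CPM in induced tumours 1 and 2. Induced tumour 2 was thus the highest of the 6 and induced tumour 1 the lowest, with a log2 fold change of 0.15 (SE 0.16, 95% interval -0.21 to 0.51, edgeR adjusted p = 0.738). The departure shows best in ratios within a tumour, which no scaling can alter. The ratio of HIST1H1D to HIST1H1C was 0.155, 0.168, 0.179 and 0.189 without doxycycline and 0.251 and 0.253 with doxycycline. The 2 induced tumours, far apart in the level of either gene, were alike in this ratio and lay above all uninduced tumours. Against HIST1H1B the ratio was 0.551 to 0.770 without doxycycline and 0.989 and 0.976 with doxycycline. HIST1H1D was singled out after its values were seen, so these ratios are a description without a test. Separation of this kind was not confined to HIST1H1D. As a share of the summed members, HIST1H1E was at 8.596% to 8.882% without doxycycline and 9.355% and 9.004% with it. HIST1H2BK was at 6.374% to 6.602% without doxycycline and 7.649% and 7.327% with it. The shares of HIST1H1T, HIST1H2BC and HIST2H2AC also lay above the uninduced range in both induced tumours. Those of HIST1H2AG, HIST1H2AI, HIST2H3D, HIST1H3J and HIST1H4J lay below it in both. The testis H1 gene HIST1H1T was at 0.346 to 1.22 CPM without doxycycline and at 1.36 and 1.26 CPM with doxycycline, with a log2 fold change of 0.82 (SE 0.46, edgeR adjusted p = 0.463). It was the 1 tested member whose induced CPM both lay above the uninduced range, at a level of 9 to 35 counts per tumour.

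H2A pairs with H2B to form the outer dimers of the nucleosome, and its class held the member that passed. HIST1H2AI was at 133, 114, 109.5 and 111 CPM in uninduced tumours 1 to 4, and at 60.2 and 79.6 CPM in induced tumours 1 and 2. Both induced tumours were below every uninduced tumour. The mean of HIST1H2AI fell from 117 ± 10.8 CPM (SD) over 4 tumours to 69.9 ± 13.7 CPM over 2, a log2 fold change of -0.74 (SE 0.13, 95% interval -1.03 to -0.45, edgeR adjusted p = 0.0327). For this gene the exact two-sided permutation p was 0.0667, the smallest possible here. Leaving out 1 tumour ended the call (edgeR adjusted p = 0.053 to 0.126, log2 fold changes -0.77 to -0.55), except when that tumour was induced tumour 2 (edgeR adjusted p = 0.0139). With the replicate number as a block, which no label bears out as a pairing, its adjusted p by edgeR was 0.18. That fit compares only tumours whose number occurs in both groups, which leaves out uninduced tumours 3 and 4.

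The other H2A genes did not pass. HIST1H2AG was at 246, 193, 174 and 228 CPM without doxycycline and at 106 and 168 CPM with it, with groups that did not overlap (log2 fold change -0.62, SE 0.19, edgeR adjusted p = 0.158). HIST1H2AC was at 235, 204, 180.1 and 237 CPM without doxycycline and at 135.5 and 194 CPM with doxycycline, where induced tumour 2 fell inside the uninduced range (log2 fold change -0.38, edgeR adjusted p = 0.306). HIST3H2A, from the small cluster on chromosome 1, was at 53.2, 66.2, 60.1 and 46.7 CPM without doxycycline and at 31.9 and 42.7 CPM with doxycycline. Its groups were also separate (log2 fold change -0.60, SE 0.16, edgeR adjusted p = 0.116). HIST2H2AC was at 119 to 158 CPM without doxycycline and at 88.4 and 133 CPM with doxycycline (log2 fold change -0.29, edgeR adjusted p = 0.461). HIST2H2AB, at 36.4 to 47.5 CPM without doxycycline, was at 26.7 and 36.1 CPM with doxycycline, the latter just under the uninduced range. All 6 tested H2A genes had negative log2 fold changes (50.4% of all genes), median -0.49, and DESeq2 called 3 of them lower (1.94% of all genes).

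Among the 39 members H2B was the largest class by number and by summed CPM, at 1303 ± 81.9 CPM without doxycycline (SD, n = 4) and 1038 ± 264 CPM with doxycycline (SD, n = 2). HIST1H2BK, the most abundant H2B gene, was at 246, 218, 206 and 243 CPM without doxycycline and at 165 and 236 CPM with it. Only induced tumour 1 lay outside the uninduced range. Its log2 fold change of -0.19 (SE 0.14, edgeR adjusted p = 0.604) became 0.052 without induced tumour 1. HIST1H2BC was at 174 to 202 CPM without doxycycline and at 122 and 183 CPM with it, and HIST2H2BE at 174 to 203 CPM without doxycycline and at 120.4 and 167 CPM with doxycycline. The former overlapped and the latter did not (log2 fold changes -0.29 and -0.40, edgeR adjusted p = 0.406 and 0.201).

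The H2B genes with the smallest p were less abundant. HIST1H2BL was at 78.3, 72.1, 68.5 and 76.8 CPM without doxycycline and at 43.9 and 59.9 CPM with doxycycline (log2 fold change -0.51, SE 0.13, edgeR adjusted p = 0.0973). HIST1H2BN was at 83.3, 83.8, 92.4 and 92.8 CPM without doxycycline and at 50.8 and 73.1 CPM with doxycycline (log2 fold change -0.51, SE 0.14, edgeR adjusted p = 0.121). Both genes had induced values below all uninduced values, and neither passed. HIST2H2BF was at 99.6 to 110.2 CPM without doxycycline and at 65.8 and 92.8 CPM with doxycycline (log2 fold change -0.39, edgeR adjusted p = 0.196). Of 12 tested H2B genes, 11 had negative log2 fold changes (50.4% of all genes), median -0.32. The pseudogene members HIST2H2BA and HIST2H2BD were at 3.69 to 7.70 and 0.329 to 0.572 CPM without doxycycline, and the groups overlapped in both.

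H3 and H4 form the tetramer at the centre of the nucleosome, and their genes within a class encode proteins that are identical or nearly so. HIST2H3D was at 55.9, 45.4, 42.9 and 46.3 CPM without doxycycline and at 23.6 and 37.8 CPM with doxycycline, without overlap (log2 fold change -0.64, SE 0.18, edgeR adjusted p = 0.139). HIST1H3J was at 46.0, 44.1, 37.2 and 49.7 CPM without doxycycline and at 25.1 and 37.1 CPM with doxycycline. Induced tumour 2 was there level with uninduced tumour 3, at 37.15 and 37.17 CPM (log2 fold change -0.51, edgeR adjusted p = 0.195). HIST1H3D was at 2.08 to 4.62 CPM without doxycycline and at 1.98 and 2.27 CPM with doxycycline (edgeR adjusted p = 0.470). HIST2H3A and HIST2H3C, whose annotated transcripts are identical over 1656 bases, averaged 1.29 ± 0.176 and 1.22 ± 0.119 CPM without doxycycline (SD, n = 4). Reads cannot be assigned between these copies, and their counts are uncertain.

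Among the H4 genes, HIST1H4C was at 196, 130, 133 and 169 CPM without doxycycline and at 79.7 and 146 CPM with doxycycline (log2 fold change -0.47, SE 0.23, edgeR adjusted p = 0.388). HIST1H4H was at 152, 121, 118 and 155 CPM without doxycycline and at 73.2 and 133 CPM with doxycycline (log2 fold change -0.40, edgeR adjusted p = 0.419). In both, induced tumour 2 lay above uninduced tumours 2 and 3. HIST4H4, which lies alone on chromosome 12, was at 85.3, 60.9, 62.7 and 78.2 CPM without doxycycline and at 45.3 and 64.1 CPM with doxycycline (log2 fold change -0.39, edgeR adjusted p = 0.329). HIST1H4J, a low-level gene, was at 4.62, 5.43, 4.94 and 3.97 CPM without doxycycline and at 1.82 and 2.88 CPM with doxycycline, without overlap. It had the lowest log2 fold change of the tested members, -1.01 (SE 0.27, edgeR adjusted p = 0.119, DESeq2 adjusted p = 0.0176).

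The uninduced tumours differed among themselves, and not in the same way for all clusters. A score was taken as the median over tested genes of log2(CPM + 0.1) minus the uninduced mean. For the HIST1 cluster on chromosome 6 it was 0.14, -0.06, -0.19 and 0.12 in uninduced tumours 1 to 4, and -0.74 and -0.08 in induced tumours 1 and 2. Among the classes H4 spread most without doxycycline, at 0.22, -0.19, -0.19 and 0.13. The score of the 3 tested HIST3 genes went the other way without doxycycline, at -0.08, 0.24, 0.10 and -0.18. Not every gene did: HIST3H2BB was at 64.1 CPM in uninduced tumour 1, above its uninduced mean of 62.1 CPM. HIST3H3 had only 5 to 31 counts per uninduced tumour. Induced tumour 1 was the lowest for both clusters, at -0.81 for HIST3, where induced tumour 2 was at -0.10.

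Per length, HIST1H1C was the most abundant member without doxycycline, at 704 ± 74.4 CPM per kilobase of annotated exon (RPKM; SD, n = 4). HIST1H2BK followed at 599 ± 50.9 RPKM and overlapped it, and then came HIST1H1E at 408 ± 43.8, HIST1H4C at 361 ± 72.8 and HIST2H2AC at 347 ± 42.4 RPKM. HIST1H2BK and HIST1H1E did not overlap, while HIST1H1E, HIST1H4C and HIST2H2AC each overlapped their neighbour in this order. HIST1H2AI came sixth at 232 ± 21.5 RPKM. The order depends on where the annotation ends a gene: over coding length alone HIST1H2AC was at 549 ± 70.1 RPKM in place of 128 ± 16.4, and HIST1H2AG at 539 ± 84.1 in place of 93.4 ± 14.6. HIST1H1C and HIST1H2BK stayed in the first 2 places, at 707 ± 74.8 and 604 ± 51.3 RPKM. The deposited counts were made on another build, whose exon limits may differ.

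Members with and without an annotated longer message had similar medians, and the difference was not tested. A spliced transcript, or one that runs more than 100 bases past the stem-loop, was annotated for 18 members. Their 17 tested genes had log2 fold changes with a median of -0.38, with 16 below 0 and 0 called by edgeR. Of these 17, 8 were lower at an unadjusted p under 0.05 and 3 were called lower by DESeq2. The 15 tested members without such a transcript had a median of -0.40, with 13 below 0 and 1 called by edgeR, 6 lower at an unadjusted p under 0.05 and 4 called lower by DESeq2. Over all genes these shares were 50.4% below 0, 7.42% lower at an unadjusted p under 0.05 and 1.94% called lower by DESeq2. The member HIST2H2BC, which has no annotation, is in neither group. A run past the stem-loop could be seen only where the annotated transcript holds a stem-loop. HIST1H1C, HIST1H2BK, HIST2H2AC, HIST1H4C and many others of the group without such a transcript have none annotated. For these a longer message could have been missed. The summed level of the longer group was 1868, 1680, 1556 and 1839 CPM without doxycycline and 1060 and 1569 CPM with it. That of the other group was 1990, 1647, 1566 and 1843 CPM without doxycycline and 1098 and 1656 CPM with it. Induced tumour 1 was the lowest in both sets, and induced tumour 2 lay within the uninduced range in both.

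Many H2A and H2B genes sit head to head and share the DNA between their starts. In GENCODE 29, 6 pairs of members are arranged in this way, with 219 to 323 bases between the annotated starts, and 5 of them were expressed. The region before HIST1H2AI, which also serves HIST1H2BL on the opposite strand, is shown because this pair holds the called gene and the H2B gene with the smallest p. The region before HIST1H2BJ, shared with HIST1H2AG, is shown because it carries the octamer motif. Both are the 250 bases before the RefSeq start (GRCh38.p14), in lower case, and the capitals mark motifs on either strand. These are the CCAAT box, the TATA box spelled TATAAA, and the octamer, which reads ATTTGCAT.
HIST1H2AI, chr6:27807923-27808172, plus strand: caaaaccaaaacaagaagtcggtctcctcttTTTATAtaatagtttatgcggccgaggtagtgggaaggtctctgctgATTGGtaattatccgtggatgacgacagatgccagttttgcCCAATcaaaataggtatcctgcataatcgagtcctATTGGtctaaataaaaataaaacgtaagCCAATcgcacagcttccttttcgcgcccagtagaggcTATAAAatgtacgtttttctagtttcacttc
HIST1H2BJ, chr6:27132796-27133045, minus strand: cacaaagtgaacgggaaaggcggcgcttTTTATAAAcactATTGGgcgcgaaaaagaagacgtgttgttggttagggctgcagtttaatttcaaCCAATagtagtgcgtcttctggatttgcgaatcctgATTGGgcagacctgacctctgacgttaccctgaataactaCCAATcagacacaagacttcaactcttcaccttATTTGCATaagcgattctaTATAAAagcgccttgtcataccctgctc
Both sequences hold TATAAA letters at each end, on opposite strands, and in HIST1H2BJ a match on the near strand overlaps the first of these.

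RefSeq promoter windows, 250 bases before to 50 after a start, matched 31 of the 39 members. The octamer, which POU2F1 binds, was found in 12 of them (38.7%) against 492 of 27305 promoters of all genes. CCAAT was found in 28 (90.3%) against 35.7%, and TATAAA in 21 (67.7%) against 12.0%. The octamer was in 6 of 8 H2A and 5 of 9 H2B windows, in 1 of 5 H3 windows and in none of 6 H1 and 3 H4 windows. CCAAT was in every H1, H2A, H2B and H3 window and in none of the 3 H4 windows. Windows of a head-to-head pair overlap, and those of HIST1H2AD and HIST1H3D are the same, so they are not independent. A match is a description of these letters and not evidence of binding.

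Ratios between genes that face each other are given for the 5 expressed pairs. They were looked at after the gene results were known, 1 pair holds the called gene, and the ratios are a description without a test. HIST1H2AG to HIST1H2BJ was 1.20, 1.12, 1.12 and 1.15 without doxycycline and 0.931 and 0.941 with doxycycline. HIST1H2AI to HIST1H2BL was 1.70, 1.58, 1.60 and 1.45 without doxycycline and 1.37 and 1.33 with doxycycline, and HIST3H2BB to HIST3H2A was 1.01 to 1.21 without doxycycline and 1.28 and 1.38 with doxycycline. In these 3 pairs the H2A gene was lower relative to its H2B neighbour in both induced tumours than in any uninduced tumour. How often other gene pairs part in this way was not measured. The ratio of HIST1H2AC to HIST1H2BC, at 1.03 to 1.25 without doxycycline and 1.11 and 1.06 with doxycycline, overlapped. That of HIST2H2AC to HIST2H2BE went the other way, at 0.627 to 0.781 without doxycycline and 0.734 and 0.801 with doxycycline, and overlapped too.

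**Figure D3:**
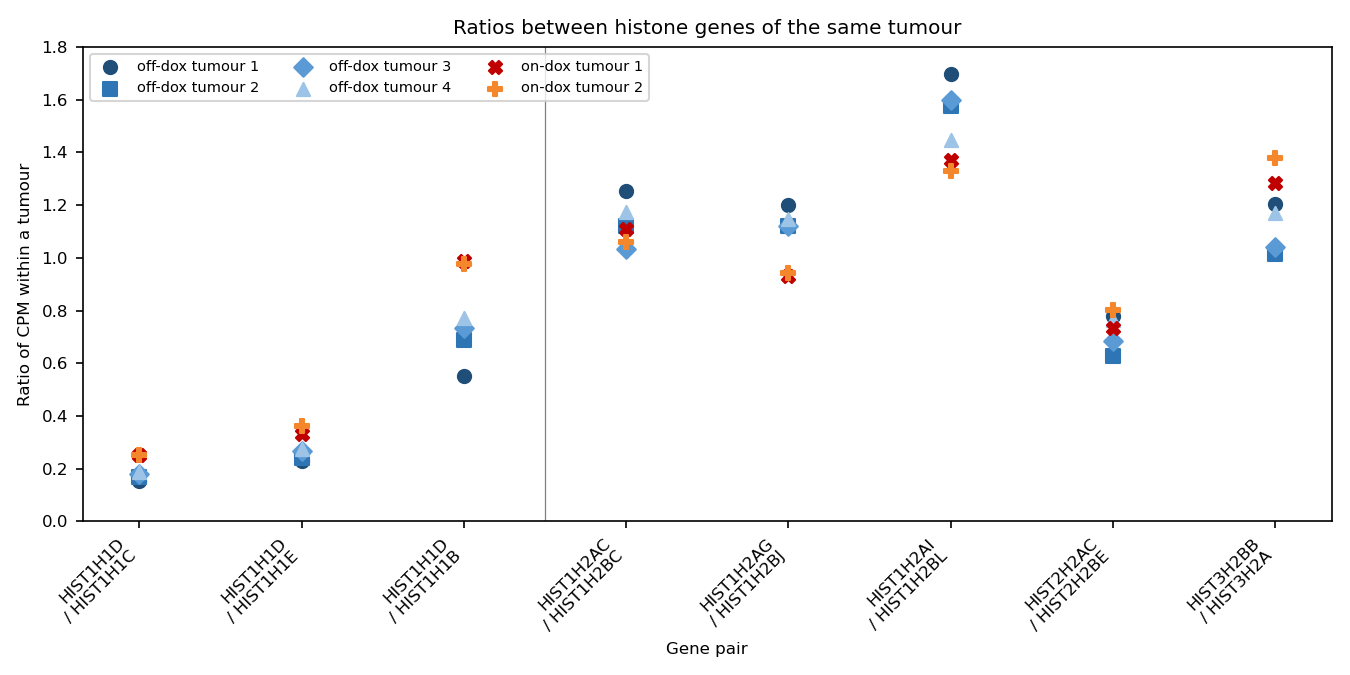
Ratio of CPM between 2 histone genes of the same tumour, for HIST1H1D against 3 other H1 genes (left) and for 5 head-to-head pairs (right), with a point per tumour. The induced tumours lie together at 0.251 and 0.253 for HIST1H1D to HIST1H1C and at 0.931 and 0.941 for HIST1H2AG to HIST1H2BJ, outside the uninduced points.

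The S phase and DNA replication genes had no call. Of 43 tested genes of this list none was called by edgeR or DESeq2, and the median log2 fold change was 0.02. At an unadjusted p under 0.05, 1 was higher and 0 lower, where 6.84% and 7.42% of all genes were. The list score was -0.14 in induced tumour 1 and 0.13 in induced tumour 2, against -0.11 to 0.19 without doxycycline. The smallest p belonged to POLA2, a subunit of DNA polymerase alpha, at 49.7 to 70.5 CPM without doxycycline and 78.6 and 74.4 CPM with doxycycline (log2 fold change 0.35, edgeR adjusted p = 0.238). DBF4, the activator of the CDC7 kinase, was at -0.27 and the GINS complex gene GINS4 at -0.33 (edgeR adjusted p = 0.371 and 0.421). The 23 histone chaperone genes had a median of 0.03, with none called by edgeR or DESeq2. At an unadjusted p under 0.05, 1 of them was higher and 2 were lower, against the same shares of all genes. RBBP4, a histone-binding subunit of the chromatin assembly factor, had a log2 fold change of 0.22, ASF1A, a carrier of H3 and H4, of -0.29, and HJURP, which deposits CENPA, of -0.23 (edgeR adjusted p = 0.269, 0.346 and 0.347).

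The genes that make and process histone mRNA went in both directions. Of 30 tested, none was called by edgeR, and the median log2 fold change was -0.02. At an unadjusted p under 0.05, 3 were higher and 2 lower, where 6.84% and 7.42% of all genes were. FIP1L1, a subunit of the cleavage and polyadenylation factor, was at 60.4, 59.6, 62.4 and 56.8 CPM without doxycycline and at 42.3 and 48.5 CPM with doxycycline (log2 fold change -0.40, edgeR adjusted p = 0.0983). It was the 1 gene of this list called by DESeq2 (adjusted p = 0.0408), which called 1.94% of all genes lower. CASP8AP2 was at 80.4, 80.1, 81.3 and 91.8 CPM without doxycycline and at 110.6 and 98.3 CPM with doxycycline, and NPAT at 94.7, 93.5, 95.9 and 101.6 CPM without doxycycline and at 120 and 114 CPM with it. These 2 factors of the histone locus body were higher in each induced tumour than in any uninduced tumour, without passing (log2 fold changes 0.32 and 0.27, edgeR adjusted p = 0.156 and 0.175). Of the 30 tested genes, 5 had both induced values above all uninduced values and 4 had both below. Over all genes each share was 11.5%. The groups of LSM10, LSM11 and ZNF473 overlapped.

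The replication-independent variants had no call by edgeR. Of 12 tested, DESeq2 called 1 lower (1.94% of all genes), and the median log2 fold change was -0.20. At an unadjusted p under 0.05, 4 were lower and 0 higher, where 7.42% and 6.84% of all genes were. H2AFX, the variant phosphorylated at DNA breaks, was at 79.8, 66.1, 58.7 and 71.8 CPM without doxycycline and at 45.2 and 47.7 CPM with doxycycline (log2 fold change -0.57, SE 0.13, edgeR adjusted p = 0.0628). Both induced tumours were low, and DESeq2 called the gene (adjusted p = 0.00381). Its mRNA is known to end either in a stem-loop or in a poly(A) tail. H2AFZ was at 201 to 229 CPM without doxycycline and at 116 and 194 CPM with it (log2 fold change -0.48, edgeR adjusted p = 0.238), and H1FX at 43.7 to 57.1 CPM without doxycycline and at 31.5 and 42.5 CPM with doxycycline (-0.39, edgeR adjusted p = 0.269). The difference between this list and the histone members was not tested.

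The libraries held abundant RNAs listed as lacking a poly(A) tail, and in induced tumour 1 they went in both directions. The long nuclear RNAs MALAT1 and NEAT1 were highest there, and nearly all the others were lowest there. Over all 25 the log2 ratio of the summed CPM, induced to uninduced, was 0.02. The 23 others were set apart after these values were seen. NEAT1 is not tail-less in all its forms, and the counts do not separate them. RN7SK, the small nuclear RNA that holds back the elongation factor P-TEFb, was at 32220 to 37960 CPM without doxycycline and at 20250 and 36050 CPM in induced tumours 1 and 2. Induced tumour 1 was the lowest of the 6 tumours for 22 of 23 tested tail-less RNAs other than MALAT1 and NEAT1. It was lowest for 24.6% of all genes, and for 34.9% of those with a mean of at least 10 CPM. The score of these 23 was 0.38, -0.11, -0.19 and -0.04 without doxycycline, -0.71 in induced tumour 1 and 0.21 in induced tumour 2. The histone members scored 0.09, -0.06, -0.14 and 0.09 without doxycycline, -0.65 in induced tumour 1 and -0.11 in induced tumour 2. Both sets were lowest in induced tumour 1. The tail-less RNAs were highest in uninduced tumour 1 and next in induced tumour 2. The histone members were level in uninduced tumours 1 and 4 and below them in induced tumour 2. The 24 members with a mean of at least 10 CPM scored highest in uninduced tumour 1. Their scores were 0.14 there, 0.09 in uninduced tumour 4 and -0.12 in induced tumour 2. The part of the tail-less fraction in the histone values was not tested.

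Of the 25 tested RNAs listed as tail-less, MALAT1 and NEAT1 included, TERC, the telomerase RNA, was the 1 called (1.06% of all genes). It fell from a mean of 101 ± 17.4 CPM (SD) over 4 tumours to 51.4 ± 10.5 CPM over 2, with a log2 fold change of -0.97 (SE 0.17, edgeR adjusted p = 0.0329). DESeq2 called it too, and its call was not followed with tumours left out. RNY3, a Y RNA, was at 0.801 to 1.58 CPM without doxycycline and at 0.232 and 0.567 CPM with doxycycline (edgeR adjusted p = 0.165), and SCARNA21 at 46.8 to 60.1 CPM without doxycycline and at 57.3 and 78.6 CPM with doxycycline (edgeR adjusted p = 0.240). The nuclear RNAs MALAT1 and NEAT1 took 4.08% of counts in induced tumour 1 and 1.48% to 2.33% in the others, opposite to the histone genes. The mRNAs of the mitochondrial genome took 0.529% there and 0.222% to 0.276% in the others. The 6 fibroblast markers summed to 145 to 799 CPM without doxycycline and 129 and 317 CPM with it, and the 6 muscle markers to 2.08 to 483 CPM without doxycycline and 3.33 and 11.5 CPM with doxycycline. Those of myeloid cells summed to 19.2 to 38.5 CPM without doxycycline and 29.3 and 35.4 CPM with doxycycline, and of endothelium to 5.07 to 6.89 CPM without doxycycline and 4.997 and 3.97 CPM with doxycycline. No marker found in the table was at 0 in all tumours, 1 endothelial marker was not in it, and their part in the histone values was not tested.

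**Figure D4:**
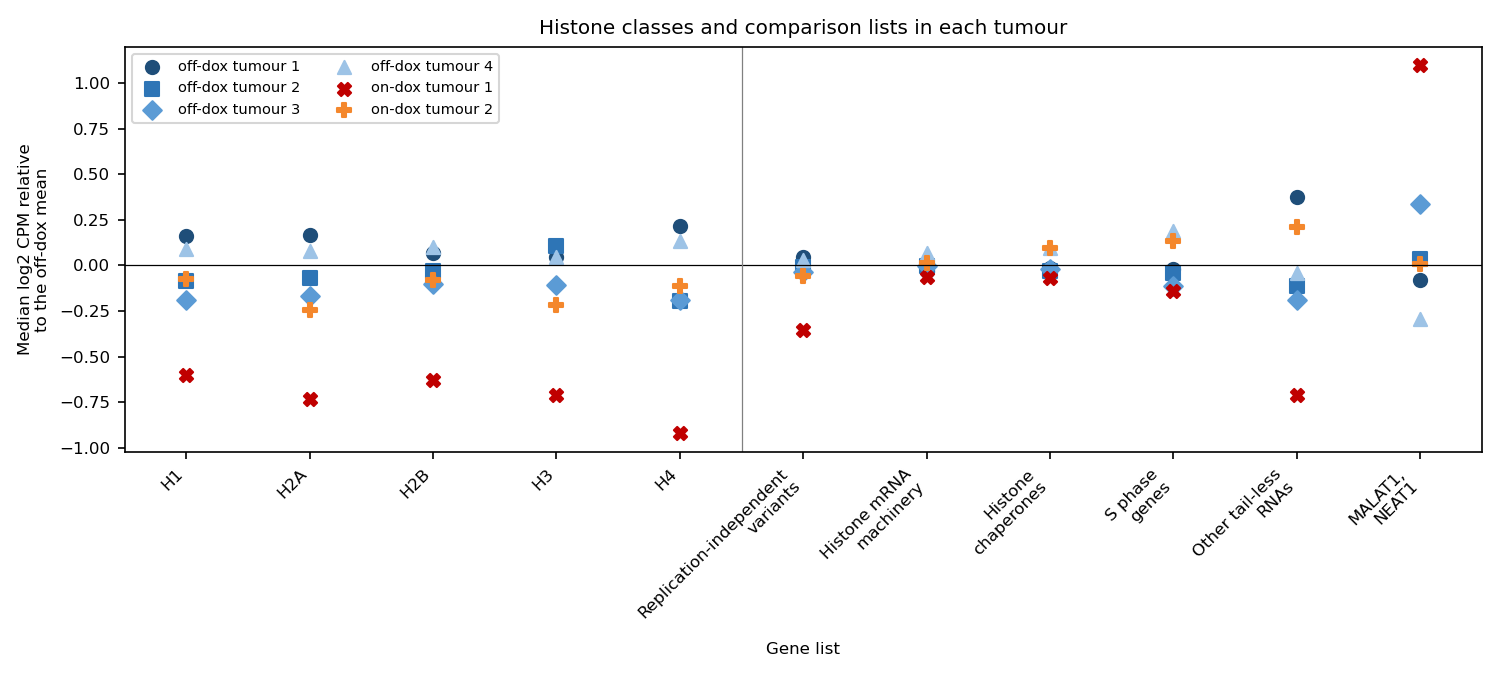
Median over the tested genes of each list of log2(CPM + 0.1) relative to the uninduced mean, with a point per tumour, for the 5 histone classes (left of the line) and the comparison lists (right). Induced tumour 1 lies lowest in every histone class, at -0.92 for H4, and at -0.71 for the other tail-less RNAs, while the S phase genes lie between -0.14 and 0.19.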

How the data were processed

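The authors deposited whole-number counts per gene for 6 tumours. The submitters' processing notes name hg19 with the tools STAR, HTSeq and limma. They state no version, annotation or strand setting and nothing on multi-mapped or mouse reads. Groups came from the sample titles. Lines with a repeated identifier (25 of 57798) were removed. Counts were tested with edgeR 4.0.16 (R 4.3.3, limma 3.58.1) over all genes, with TMM factors, filterByExpr, the quasi-likelihood test and Benjamini-Hochberg adjustment at 0.05, after a check on simulated counts. CPM use TMM-scaled library sizes. The titles number the replicates, and nothing says whether each tumour came from its own mouse, so p-values measure the spread between these tumours. Alternatives were other scalings and filters, DESeq2 1.42.0, robust fitting, a block on replicate number, limma voom and leaving out each tumour. GENCODE 29 and RefSeq, on GRCh38, gave names, lengths and sequences; RefSeq promoters matched 31 of 39 members by symbol or synonym. The naming rule took every called member and, in each class, the 3 highest by mean CPM and the 3 with the smallest p; other members given with values (HIST1H1D, HIST1H1T, HIST1H2BJ, HIST2H2AB, HIST2H2BA, HIST2H2BD, HIST2H3A, HIST2H3C and HIST3H2BB) were named after their values were seen. Members and lists were chosen with earlier results of these data known.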

Additional observations from a re-analysis of the deposited data

Results flagged for a closer look

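The summed level of the RNAs listed as lacking a poly(A) tail was 99110 CPM in uninduced tumour 1, and between 83450 and 84920 CPM in the remaining 3 uninduced tumours. Its distance from them, 0.906 of the range of the 4 tumours, is above Dixon's 95% critical value. Chance marks about 1 in 20 groups of 4, and 43 such groups were looked at here. The summed histone members were also highest in that tumour, at 3859 CPM, without standing apart.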

How the results depend on the processing

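Every fit gave a median log2 fold change of the histone members below 0. With other scalings, a stricter filter, robust fitting and limma voom, HIST1H2AI stayed the 1 called member. Without a low-count filter 770 genes and 7 members were called (1.17% of all genes were called lower), and with DESeq2 724 genes and 7 members. With 1 tumour left out, calls over all genes ranged from 72 to 562 and called members from 0 to 15, their median from -0.67 to -0.15 and the log2 ratio of their summed CPM from -0.70 to -0.12. The 15 arose without induced tumour 2 (1.44% of all genes called lower), where induced tumour 1 takes its spread from the uninduced group. Leaving out any other tumour gave 0 called by edgeR, with 5 to 19 members lower at an unadjusted p under 0.05 (5.94% to 7.12% of all genes). HIST1H2BK ranged from -0.47 to 0.052 with 1 tumour left out, the latter without induced tumour 1. Over 14 alternatives, 21 members gave 294 values, of which 263 kept direction and call, 24 gained the call, 6 lost it and 1 changed sign. With coding in place of exon length, 15 of 21 uninduced RPKM moved by more than their SD. Replicate numbers are shared by the groups but no label pairs the tumours. The deviations of same-numbered tumours from their group means correlated at -0.032 and 0.0063. The deviations of the 2 induced tumours mirror each other, so these values are not separate checks and cannot settle whether tumours pair. With the replicate block 53 genes and 0 members were called, and HIST1H2AI had an edgeR adjusted p of 0.18. In that fit 9 members were lower at an unadjusted p under 0.05 (4.68% of all genes). Uninduced tumours 3 and 4, whose numbers no induced tumour shares, do not bear on the comparison of the groups in that fit. Members under 10 CPM are limited by counting.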

Other observations

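A row without a symbol in the deposited table is named HIST2H2BC in GENCODE 29 and annotated there as a transcribed pseudogene; its identifier differs from that of the member with the same name. It was at 19.8, 25.95, 23.3 and 32.5 CPM in uninduced tumours 1 to 4, and at 44.7 and 29.4 CPM in induced tumours 1 and 2. Induced tumour 1 was thus the highest, the reverse of the members (log2 fold change 0.54, SE 0.20, edgeR adjusted p = 0.254). HIST2H2AA3, also without a symbol in the table, was at 0.905 to 1.77 CPM without doxycycline and at 0.697 and 1.22 CPM with doxycycline. The 14 rows with a pseudogene ending summed to 2.501 to 4.28 CPM without doxycycline and to 2.29 and 4.21 CPM with doxycycline.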
